A study of Saccharomyces cerevisiae with 4 samples.

Results

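SEF1, GID7 and BRR2 are 3 yeast genes inside which capped RNA began on the opposite strand without Set2. Beyond their first 200 bp, such antisense 5′ ends were found in both libraries without Set2 and in neither wild-type library. The 3 genes were chosen from these same libraries, as those with the largest fitted gain of antisense 5′ ends among 6002 nuclear protein-coding genes. Of these, 5710 reached the minimum length of 300 bp, and 1480 had enough antisense counts to be tested. Their antisense values are therefore a description of what chose them and carry no test, whereas their sense values, their promoters and the sequence at their start sites were not used in the choice. The libraries hold the 5′ ends of capped, polyadenylated RNA from BY4741 (MATa his3Δ1 leu2Δ0 met15Δ0 ura3Δ0, the wild type) and from set2Δ, a deletion collection strain with SET2 replaced by kanMX4 in the same background, with 2 libraries per strain. The auxotrophic markers are shared by both strains. Cells were grown in YPD with 1% glucose at 30 °C to an optical density of 1. The series describes the samples of a strain as biological duplicates, and p-values measure the spread between them.

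Set2 methylates lysine 36 of histone H3 behind elongating RNA polymerase II, and this mark recruits the Rpd3S deacetylase, which keeps transcribed chromatin poor in acetyl groups. Without it, promoter-like stretches inside coding sequences can start transcription, in the direction of the gene (sense) or against it (antisense). SEF1 encodes a putative zinc cluster transcription factor, whose homologue in Candida albicans controls iron uptake. GID7 encodes a WD40-repeat subunit of the Gid ubiquitin ligase, which marks gluconeogenic enzymes for degradation when glucose returns. BRR2 encodes the RNA helicase of the U5 snRNP that unwinds the U4/U6 duplex during activation of the spliceosome.

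The BY4741 libraries held 452888 and 375442 counts in total, against 1267578 and 1099482 for set2Δ, whose libraries were on average 2.86 times as deep. The coding sequence of SET2 itself had 9 and 2 counts for BY4741, against 0 and 1 for set2Δ. In the 250 bp before it, which the deletion leaves in place, were 22 and 11 against 13 and 11. These counts are not scaled for depth, and relative to the library totals this stretch was also lower in set2Δ. Levels are given as CPM, the count scaled to a common total per library. A count of 0 over both BY4741 libraries allows a level of up to 3.62 CPM (3 counts over the pooled total), and a count of 0 in 1 library allows 6.62 CPM in replicate 1 and 7.99 CPM in replicate 2. These limits and all intervals cover counting error only.

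SEF1 (YBL066C) lies on the minus strand of chromosome II at chrII:96669-100115 of the R64 genome, and is 3447 bp long. GID7 (YCL039W) lies on the plus strand at chrIII:52645-54882 and is 2238 bp long. BRR2 (YER172C) lies on the minus strand at chrV:529530-536021 and, with 6492 bp, is the longest of the 3. Each is a single-exon coding sequence, so that every position below is exonic. Positions within a gene are counted from 1 at the first base of the start codon. The antisense window of each gene ran from 200 bp after its start to its end, and antisense positions at most 30 bp apart were joined into clusters. Sense positions were joined in the same way. A sense cluster is named only where it held at least 2 counts in each set2Δ library and more than 4 over both.

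The sequences below show where the antisense RNA of each gene began. They are the most used cluster of SEF1, of BRR2 and the 2 most used of GID7, printed 5′ to 3′ on the antisense strand from the R64 reference (RefSeq), from 40 bases before the cluster to 10 bases after it. Capitals mark each first transcribed base with at least 2 counts in each set2Δ library.
SEF1, bases 935 to 1023, plus strand, chrII:99053-99191: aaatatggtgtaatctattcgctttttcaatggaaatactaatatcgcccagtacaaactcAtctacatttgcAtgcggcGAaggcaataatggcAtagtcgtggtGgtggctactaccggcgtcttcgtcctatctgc
GID7, bases 861 to 988, minus strand, chrIII:53495-53672: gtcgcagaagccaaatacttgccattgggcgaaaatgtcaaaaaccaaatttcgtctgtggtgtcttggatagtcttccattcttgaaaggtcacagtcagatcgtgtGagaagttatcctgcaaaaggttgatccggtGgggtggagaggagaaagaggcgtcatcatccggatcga
GID7, bases 1272 to 1314, minus strand, chrIII:53906-53998: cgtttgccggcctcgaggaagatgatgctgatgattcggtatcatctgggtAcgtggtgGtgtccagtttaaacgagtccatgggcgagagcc
BRR2, bases 2638 to 2699, plus strand, chrV:533283-533394: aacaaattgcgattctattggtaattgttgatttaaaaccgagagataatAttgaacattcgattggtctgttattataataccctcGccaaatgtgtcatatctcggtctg

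SEF1 had 0 antisense counts in either BY4741 library, against 74 and 61 in set2Δ, or 58.4 and 55.5 CPM. Both set2Δ libraries stood far above the limit of 3.62 CPM, with a mean of 56.9 ± 2.05 CPM (SD, n = 2). The antisense 5′ ends fell on 51 positions, but most lay in the cluster printed above, which spans 89 bp and held 48 and 43 counts. These were 64.9% and 69.4% of the antisense counts of the whole gene in each library, its first 200 bp included. The most used base of the cluster, 983 (chrII:99133), was also the highest antisense position of any of the 3 genes, with 14 and 12 counts. Smaller clusters lay at bases 1386 to 1413, with 7 and 5 counts, and at bases 2234 to 2259, with 4 and 4. No other antisense cluster of SEF1 came near the size of the first in either library.

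GID7 likewise had no antisense count in BY4741 (0 and 0), against 51 and 43 in set2Δ, or 40.2 and 39.1 CPM, with a mean of 39.7 ± 0.795 CPM (SD, n = 2). Of its 49 antisense positions, 39 lay in 3 clusters in the middle of the gene, with 84 of the 94 counts, and the other 10 were scattered outside them. The first, at bases 861 to 988, held 22 and 15 counts, and the second, at bases 1272 to 1314, held 17 and 16. The third, at bases 1389 to 1460, held 7 and 7. The most used base of the gene, 1303 (chrIII:53947) in the second cluster, had only 4 and 5 counts, so that no single position carried the level. In both libraries the first and second clusters were of similar size and the third was the smallest.

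In its window BRR2 had 0 and 0 antisense counts in BY4741, against 56 and 33 in set2Δ, or 44.2 and 30.0 CPM. Its set2Δ libraries differed more than those of the other genes (mean 37.1 ± 10.0 CPM, SD, n = 2). GID7 and BRR2 did not differ beyond this spread, whereas SEF1 lay above both in each library. Per kb of window the order was another one, with 19.5 CPM per kb in GID7, 17.5 in SEF1 and 5.90 in BRR2. The main cluster of BRR2, at bases 2638 to 2699, held 32 and 20 counts, with 6 and 3 at its most used base, 2689 (chrV:533333). A second cluster at bases 3479 to 3537 held 9 and 4 counts.

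BRR2 was the only one of the 3 with antisense counts in BY4741 next to its window. The first 200 bp of the gene, which the window leaves out, held 1 and 2 antisense counts in BY4741 and 14 and 11 in set2Δ, most of them in a cluster at bases 155 to 210. The 250 bp before the gene held 3 and 0 against 25 and 18 on that strand, and this stretch is the promoter side of RAD24, the divergent neighbour. The 250 bp past the end of BRR2 held 2 and 0 antisense counts in BY4741 against 6 and 4 in set2Δ. In CPM these were 4.42 and 0 against 4.73 and 3.64. The first 200 bp of SEF1 and of GID7 held 0 and 0 antisense counts in BY4741 and 0 and 1 in set2Δ, and no antisense count lay in the 250 bp before either gene.

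**Figure D1:**
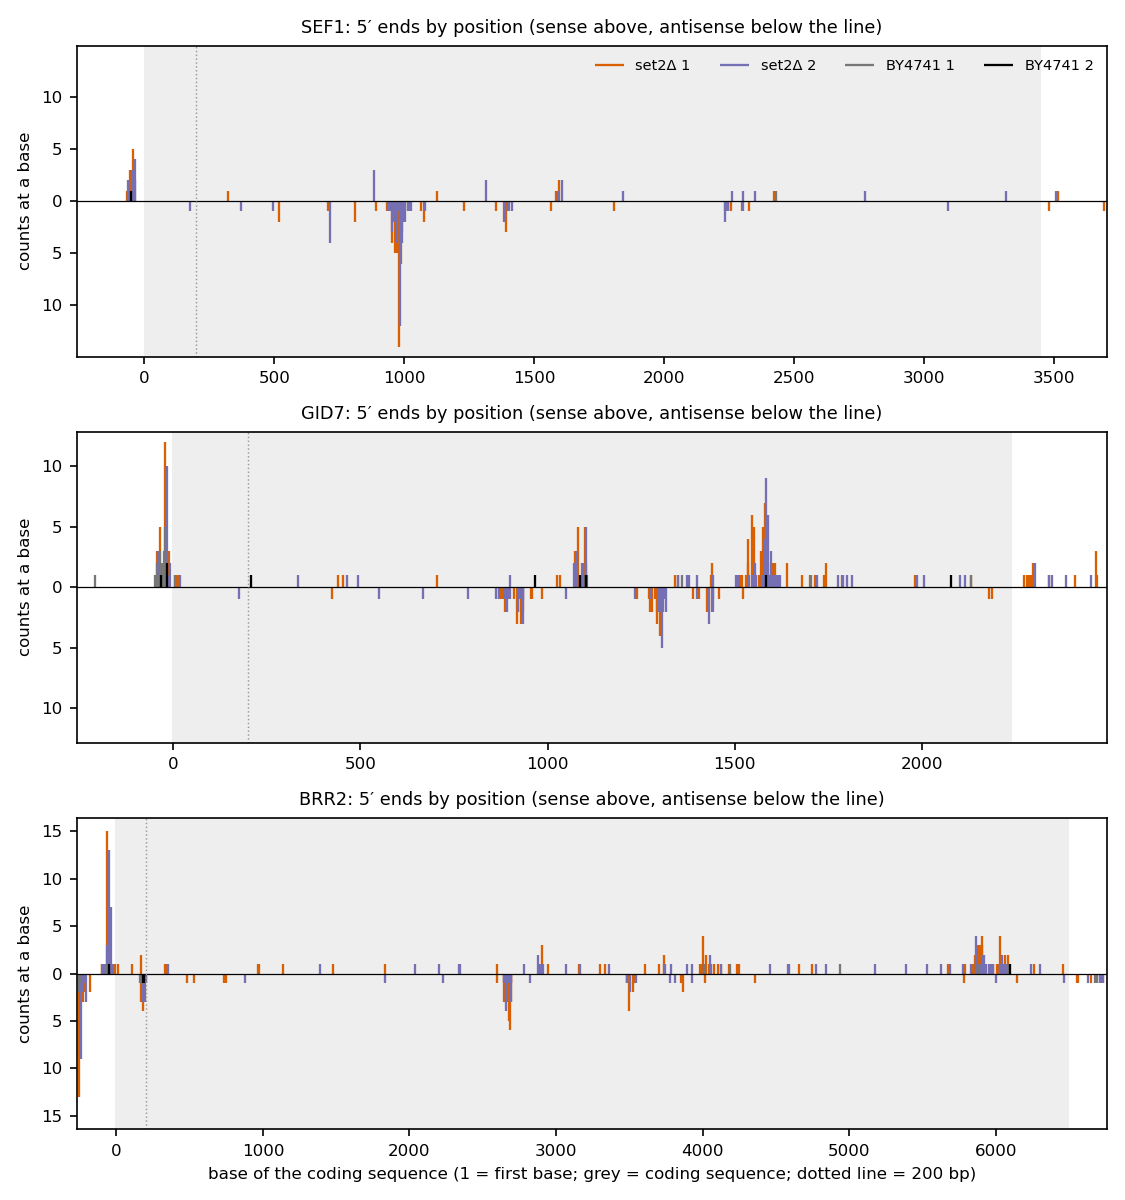
Counts of 5′ ends at each base (vertical axis, sense above and antisense below the line) along SEF1, GID7 and BRR2 (horizontal axis, base of the coding sequence, with 250 bp on each side), 1 colour per library. SEF1 has 1 sharp antisense peak at base 983, GID7 has 3 low antisense clusters among its sense clusters, and BRR2 has an antisense cluster at base 2689 and its largest internal sense cluster near its 3′ end.

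Because BY4741 gave no counts in the antisense windows, the size of the gain is only bounded from below. The genes were chosen for these same counts, and the bounds make no allowance for that choice. With BY4741 set to 3 counts in all, antisense 5′ ends were at least 8.33-fold higher in set2Δ in SEF1, at least 5.80-fold in GID7 and at least 5.49-fold in BRR2 after TMM scaling, which sets a factor per library from a trimmed mean of the log ratios between libraries. With scaling to library totals the bounds were 15.7-fold, 11.0-fold and 10.4-fold. At an equal TMM-scaled level in both strains, 25.0, 17.4 and 16.5 counts would have fallen in BY4741. With the 2 scalings, the log2 fold changes of the 1480 tested genes had a median of 1.21 with TMM and of 2.09 with library totals.

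Of the 1480 genes tested for antisense counts, 16.9% were called higher in set2Δ and 4.46% lower (250 and 66 genes, edgeR's quasi-likelihood test, adjusted p below 0.1), against 808 and 30 genes with library totals. The rule that chose the 3 genes asked for a call, a mean of at least 20 set2Δ counts and no overlap between the strains. It was met by 128 genes, and the 3 were taken as the first in the order of the fitted fold change. The level alone did not put them first, as SEF1, GID7 and BRR2 ranked 25, 52 and 63 among the 1480 by their set2Δ level. What set them first was the absence of BY4741 counts, shared by 420 tested genes, among which they ranked 1, 2 and 3 by set2Δ level.

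The next gene in the order, SEG2, which encodes an eisosome component, lay just outside, with no count in BY4741 and with 53 and 31 in set2Δ, close to BRR2 just inside. It was followed by SSY1, a sensor of external amino acids, with 39 and 38 counts in set2Δ, and by SNX41, a sorting nexin, with 43 and 34. PPN1, a vacuolar polyphosphatase, had 39 and 37 and NFT1, a putative transporter, had 34 and 35, and none of these genes had an antisense count in BY4741. The step from the third to the fourth gene was thus smaller than the difference between the BRR2 libraries themselves.

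**Figure D2:**
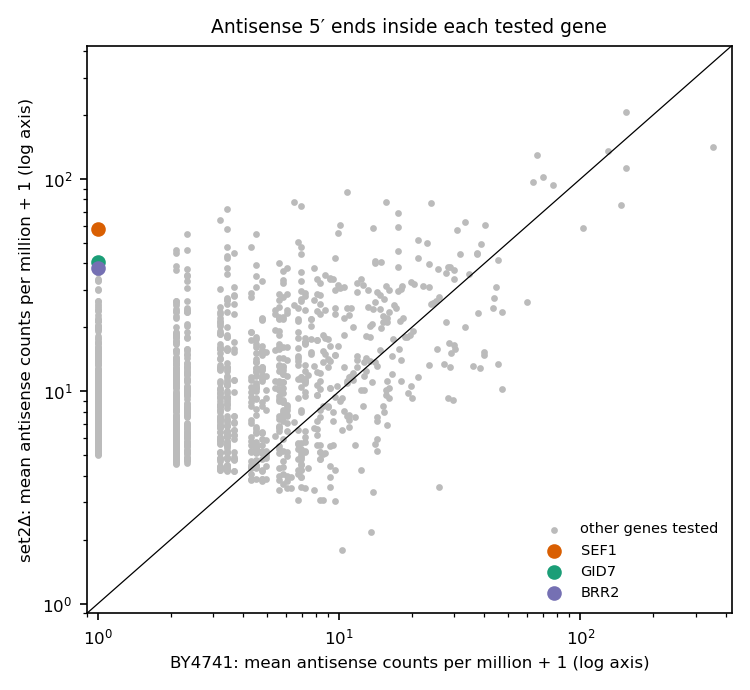
Mean antisense level inside each of the 1480 tested genes in set2Δ (vertical axis) against BY4741 (horizontal axis), in CPM plus 1 on log axes, with the line of equal levels. SEF1, GID7 and BRR2 are the top 3 points of the column of genes with no count in BY4741, at 56.9, 39.7 and 37.1 CPM in set2Δ, while genes with BY4741 counts reached higher set2Δ levels.

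On the direction of the gene, the 3 differed in which changes were called. Sense 5′ ends inside the gene were called higher in GID7 and BRR2, and those at the annotated promoter in BRR2 and SEF1. The genes were not tested against each other. Inside SEF1 the uncalled log2 fold change was 2.05, against 1.66 in GID7 and 2.18 in BRR2. The promoter was measured in the 5′ window, from 250 bp before the gene through its first 200 bp. All p-values are from edgeR's quasi-likelihood test, adjusted by the Benjamini-Hochberg method over all genes tested in that window, and called below 0.1.

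In SEF1, sense internal counts were 1 and 0 in BY4741 against 6 and 14 in set2Δ, or 2.21 and 0 CPM against 4.73 and 12.7 CPM. The groups did not overlap, but the difference was not called, with a log2 fold change of 2.05 (SE 1.26, adjusted p = 0.207, n = 2 per strain). The ratio of the summed counts was 4.37, with a 95% interval of 0.699 to 181 that 1 BY4741 count leaves wide, and with library totals the change was called (log2 fold change 2.67, adjusted p = 0.050). Leaving out BY4741 replicate 2 gave a fitted value of 1.24, and leaving out replicate 1 gave 5.90, since the latter held the one BY4741 count, with no call in either case (adjusted p = 0.527 and 0.168). In its 5′ window were 0 and 1 counts for BY4741, against 12 and 15 for set2Δ, or 0 and 2.66 CPM against 9.47 and 13.6 CPM. This was called higher, with a log2 fold change of 2.92 (SE 1.12, adjusted p = 0.0189) and a ratio of summed counts of 8.32 (95% interval 1.37 to 341). The call was lost without BY4741 replicate 1 (1.82, adjusted p = 0.203), without set2Δ replicate 2 (2.64, adjusted p = 0.133) and with DESeq2 (adjusted p = 0.166), and without BY4741 replicate 2, where no BY4741 count is left, the fitted value was 6.41.

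In GID7, sense internal counts were 4 and 7 in BY4741 and 91 and 69 in set2Δ, or 8.83 and 18.6 CPM against 71.8 and 62.8 CPM. Both set2Δ libraries lay above both BY4741 libraries, with a log2 fold change of 1.66 (SE 0.41, adjusted p = 0.000279). In the 5′ window of GID7 were 16 and 3 counts for BY4741, against 30 and 26 for set2Δ, or 35.3 and 7.99 CPM against 23.7 and 23.6 CPM. Here the set2Δ libraries lay between the BY4741 libraries, and no difference was called, with a log2 fold change of -0.14 (SE 0.41, adjusted p = 0.792), a ratio of 0.908 and a 95% interval of 0.531 to 1.62. The change inside GID7 exceeded that at its promoter by 1.81 on the log2 scale (SE 0.62, adjusted p = 0.0386, interaction of strain and window). This rests on BY4741 replicate 1, where the promoter count was high, since without it the difference was -0.24 (adjusted p = 0.927) and the 5′ window change 1.32 (adjusted p = 0.140). Without BY4741 replicate 2 the interaction was 3.0 (adjusted p = 0.00309), and the call was also lost without set2Δ replicate 1 (adjusted p = 0.201) and without set2Δ replicate 2 (adjusted p = 0.180).

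In BRR2, sense internal counts were 6 and 1 in BY4741 and 81 and 65 in set2Δ, or 13.2 and 2.66 CPM against 63.9 and 59.1 CPM. The strains did not overlap, and the log2 fold change was 2.18 (SE 0.47, adjusted p = 2.52e-05). In its 5′ window was 1 count in each BY4741 library, against 46 and 43 in set2Δ, or 2.21 and 2.66 CPM against 36.3 and 39.1 CPM. This was the largest promoter change of the 3 genes, with a log2 fold change of 3.70 (SE 0.67, adjusted p = 2.54e-07), a ratio of summed counts of 13.7 and a 95% interval of 3.69 to 115. The call held in every alternative run, at log2 fold changes of 2.90 to 7.22. The change inside BRR2 did not differ detectably from that at its promoter, with an interaction of -1.44 (adjusted p = 0.439), and the same held for SEF1 (-0.72, adjusted p = 0.857).

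The internal sense calls depended on single libraries in size. In GID7 the log2 fold change was 1.07 (adjusted p = 0.0977) without BY4741 replicate 1 and 2.25 without BY4741 replicate 2, and in BRR2 it was 3.71 and 1.53 in the same order. Without set2Δ replicate 2 both calls were lost, at adjusted p = 0.155 in GID7 and 0.146 in BRR2, and no gene of the genome was called there by edgeR, although 1335 genes had an unadjusted p below 0.05.

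Over all genes, 25.0% of 4726 tested genes were called higher and 17.6% lower in sense internal counts, and 32.3% of 5060 were called higher and 30.2% lower in the 5′ window. With library totals the calls were 1948 higher and 345 lower inside genes, against 1180 and 834 with TMM, and 2132 and 1184 in the 5′ window, against 1636 and 1530. The log2 fold changes over all genes tested had medians of 0.15 and 0.11 in the 2 windows with TMM, and of 0.83 and 0.29 with library totals. Calls for 2 of 3 genes inside and 2 of 3 at the promoter are thus not rare outcomes. A larger change inside the gene than at the promoter, as in GID7, was called for 7.76% of 4500 genes.

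**Figure D3:**
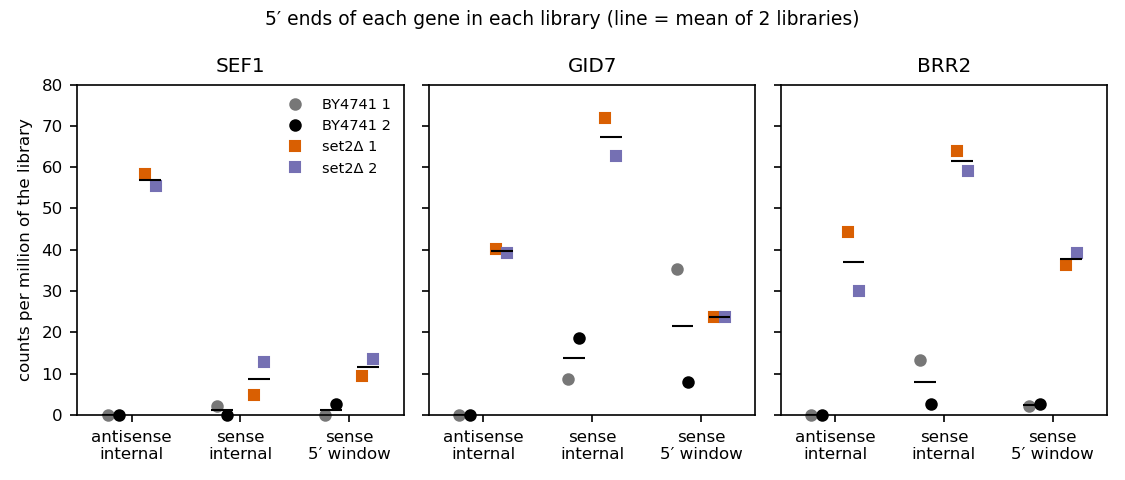
Level of antisense internal, sense internal and sense 5′ window 5′ ends (vertical axis, CPM of the library) in SEF1, GID7 and BRR2, with 1 point per library and a line at the mean of the 2 libraries of a strain. Antisense points of BY4741 lie at 0 in all 3 genes, and the BY4741 libraries of GID7 lie apart in the 5′ window, at 35.3 and 7.99 CPM.

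In set2Δ, the balance between the strands inside the genes was opposite in SEF1 and the other two. Antisense 5′ ends made up 92.5% (95% Wilson interval 84.6 to 96.5%) and 81.3% (71.1 to 88.5%) of all internal 5′ ends of SEF1 in the set2Δ libraries. They made up 35.9% (28.5 to 44.1%) and 38.4% (29.9 to 47.6%) in GID7, and 40.9% (33.0 to 49.2%) and 33.7% (25.1 to 43.5%) in BRR2. The intervals of SEF1 did not overlap those of GID7 or BRR2, whose intervals overlapped each other. Each share contains the antisense counts that chose the genes, so this comparison is a description and not a test. Antisense starts also outnumbered those at the gene's own promoter in SEF1, with 135 counts against 27 over both set2Δ libraries, and in GID7, with 94 against 56, and equalled them in BRR2, with 89 against 89.

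These figures can be set beside the 220 tested genes with at least 50 antisense counts over both set2Δ libraries, as a description. Their median antisense share was 48.9%, and 11.4% of them exceeded the 87.1% of SEF1, while 68.6% exceeded the 37.0% of GID7 and 66.4% the 37.9% of BRR2. The densest 100 bp held 67.4% of the antisense counts in SEF1, 59.6% in BRR2 and 37.2% in GID7, against a median of 62.1%, and 85.0% of the genes were more concentrated than GID7. The most used antisense position lay at 28.5% of the length of SEF1, 41.4% of BRR2 and 58.2% of GID7, whereas the median was 74.0%. In 86.4%, 75.9% and 64.1% of the 220 genes, respectively, it lay closer to the 3′ end. Only 3 of the 220 genes were longer than BRR2, and its antisense level per kb was lower than in 93.2% of them.

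The sense and antisense start sites of GID7 lay side by side, in both arrangements. Each antisense cluster was followed, toward the 3′ end of the gene, by a cluster of sense 5′ ends that pointed away from it, and those at bases 1303 and 1428 also had a sense cluster before them that pointed toward them. The antisense cluster with its most used base at 920 was followed by a sense cluster at bases 1069 to 1104 (BY4741 1 and 3, set2Δ 19 and 16 counts). The distance between the most used bases of this pair was 182 bp. The antisense cluster at base 1303 was followed by a weak sense cluster with 1 and 0 against 2 and 4 counts. Each base of this weak cluster that was used in set2Δ held 1 count, so it has no most used base. Its first base, 1341, lay 38 bp after base 1303. The antisense cluster at base 1428 was followed after 153 bp by the main sense cluster of the gene, at bases 1501 to 1642, (BY4741 0 and 1, set2Δ 53 and 35 counts). Between the edges of these clusters were 81, 27 and 41 bp. In the facing direction, the most used base of the sense cluster at 1102 lay 201 bp before antisense base 1303. The first base of the weak sense cluster, 1341, lay 87 bp before antisense base 1428, nearer than the sense cluster that followed base 1428. The sense cluster at bases 1341 to 1397 overlapped the antisense cluster at bases 1389 to 1460, and a few sense 5′ ends at bases 1438 to 1441 (3 and 1 counts in set2Δ) lay within it. The sense cluster at bases 1069 to 1104 was the one cluster of those named here with more than 1 count over both BY4741 libraries.

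**Figure D4:**
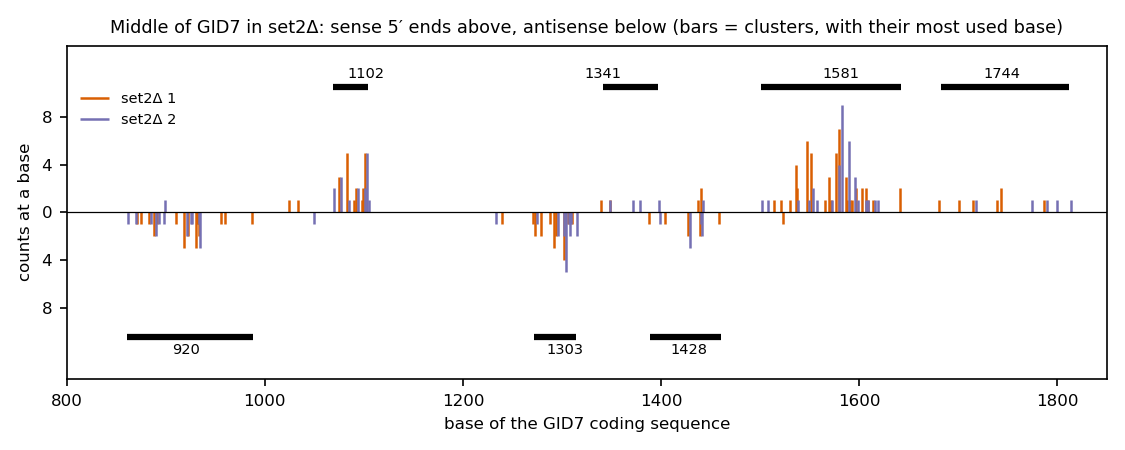
Counts of 5′ ends at each base (vertical axis, sense above and antisense below the line) over the middle of GID7 (horizontal axis, base of the coding sequence) in the 2 set2Δ libraries, with bars for the clusters and the number of the most used base of each. Where bases tied, as in the sense cluster labelled 1341, the number is that of the first. The antisense clusters at bases 920, 1303 and 1428 each have a sense cluster to their right, and those at 1303 and 1428 also have one to their left.

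The spacing in SEF1 and BRR2 was partly wider. The most used base of the main antisense cluster of SEF1 was 605 bp from the next sense cluster so named, at bases 1588 to 1603. That sense cluster had no count in BY4741 and 3 in each set2Δ library. Its 3 positions were used equally, so distances to it are given to the first. Fewer sense counts lay nearer, at bases 1130 (1 and 0 in set2Δ), 1312 (0 and 2) and, before the antisense cluster, 881 (0 and 3). The antisense cluster of SEF1 at bases 1386 to 1413 was 201 bp from the sense cluster at bases 1588 to 1603, a distance like the 182 bp in GID7. In BRR2 the main antisense cluster was 219 bp from a weak sense cluster at bases 2875 to 2909, with 0 and 0 against 4 and 5 counts. The largest group of sense 5′ ends inside BRR2 lay far away, at bases 5829 to 6091 near the end of the gene, (BY4741 3 and 1, set2Δ 39 and 28 counts). A smaller one at bases 3985 to 4131 had 1 and 0 against 12 and 5. Single antisense counts also fell within the stretches of both of these sense clusters.

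The sequence at the antisense positions was set beside that of yeast start sites. Transcription in yeast favours a purine as the first base after a pyrimidine, and this step was present at 74.5% of the 51 positions of SEF1, 71.4% of the 49 of GID7 and 79.2% of the 48 of BRR2. The same step occurs at 23.2%, 23.4% and 23.0% of all antisense positions of the 3 windows, and at 78.0% of the 25502 antisense positions used in set2Δ over all tested genes. Among positions with at least 3 counts the share was 92.9%, 83.3% and 87.5%, against 94.9% over all tested genes. The antisense strand of SEF1 and BRR2 is the plus strand, whose positions were used as deposited. For GID7, and for the minus-strand share of all tested genes, the 42 bp shift of the positions was itself set by this step, so that its share there is no independent measure. An A at 8 bases before the start, another feature of yeast start sites, was present at 41.2%, 38.8% and 45.8%, against 46.4%. At the most used base of SEF1 the step is CG and at those of GID7 and BRR2 it is TA.
SEF1, base 983: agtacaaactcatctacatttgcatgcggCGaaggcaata
GID7, base 1303: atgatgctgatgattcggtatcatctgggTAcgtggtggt
BRR2, base 2689: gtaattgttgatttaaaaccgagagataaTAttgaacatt
In these 3 lines, which place the most used start of each gene in its context, the capitals mark the base before the start and the first transcribed base.

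The letters TATAAA and TATATA, forms of the TATA element of promoters, were searched on both strands in the 150 bases before these 3 positions. Neither was found in SEF1, GID7 or BRR2, and they occurred before the most used antisense position of 20.3% and 13.0% of the 1480 tested genes. Every antisense position of the 3 genes was followed by 43 bases that occur once in the genome. Positions used in both set2Δ libraries carried 65.2% of the antisense counts of SEF1, 55.3% of GID7 and 51.7% of BRR2.

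The genes with the antisense profile nearest to each of the 3 were sought by the distance between log2(CPM + 1) values over the 4 libraries. SEF1 was nearest to GID7, BRR2 and SEG2, at distances of 0.74, 0.97 and 1.09. GID7 was nearest to BRR2, SNX41 and SSY1, at 0.40, 0.42 and 0.43, and BRR2 to SEG2, SNX41 and GID7, at 0.12, 0.38 and 0.40. All of these genes lacked BY4741 counts, so the distances reflect mostly the level in set2Δ. The same antisense counts chose the 3 genes, so their nearness to each other is no separate result.

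The neighbours of the 3 genes changed in both directions at their own promoters. UBP13, a ubiquitin protease gene 786 bp downstream of SEF1 on the same strand, was listed at 0 in both BY4741 libraries and at 15 and 28 counts in set2Δ (adjusted p = 6.04e-05). PRX1, a mitochondrial peroxiredoxin gene 255 bp upstream, had 56 and 79 counts against 96 and 82 at the higher depth, and fell by 1.30 on the log2 scale (adjusted p = 2.22e-12). GLK1, the glucokinase gene 304 bp upstream of GID7, fell by 2.31 (147 and 166 against 121 and 84 counts, adjusted p = 1.21e-56). ATG22, a vacuolar amino acid exporter gene that ends 58 bp from the end of GID7, was not called (27 and 30 against 78 and 64, log2 fold change -0.38, adjusted p = 0.160). RAD3, a TFIIH helicase gene that ends 111 bp from the end of BRR2, rose by 1.04 (23 and 25 against 172 and 148, adjusted p = 5.08e-06). RAD24, a checkpoint gene that starts 278 bp from the start of BRR2 in the other direction, rose by 0.98 (14 and 4 against 65 and 51, adjusted p = 0.0109). In these pairs, the promoters of RAD24 and BRR2 both rose.

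Genes that share a role with the 3 were read from lists. Of 11 genes listed for the Gid ligase, 2 besides GID7 had enough antisense counts to be tested. Neither of the 2 was called by edgeR or DESeq2 (0 at an unadjusted p below 0.05). Inside these genes, GID7 included, 4 of 10 tested on the sense strand rose and none fell, against 25.0% and 17.6% of all tested genes. Their median log2 fold change was 0.66 against 0.15. At their promoters, GID7 included, 1 of 10 rose and 3 fell, against 32.3% and 30.2%, with a median of -0.06 against 0.11. Of 23 subunits of the tri-snRNP, the spliceosome building block with Brr2, and splicing helicases, 6 besides BRR2 were tested for antisense counts, and edgeR and DESeq2 called none of them (1 and 0 at an unadjusted p below 0.05). On the sense strand 10 of 21, BRR2 included, rose inside the gene and 1 fell, against 25.0% and 17.6% of all tested genes, with a median of 1.31 against 0.15. At the promoter 16 of 23, BRR2 included, rose and 3 fell, against 32.3% and 30.2%, with a median of 1.00 against 0.11.

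Of 48 zinc cluster regulators, the family of SEF1, 23 besides SEF1 were tested for antisense counts, of which 7 were called higher and 1 lower, against 16.9% and 4.46% of all tested genes, and with DESeq2 3 higher and 1 lower. The median fitted log2 fold change of these 23 was 2.05, against 1.21 over all tested genes, and both medians include genes without BY4741 counts, whose fitted values are not bounded. PDR3, a regulator of drug resistance, had 3 and 2 antisense counts in BY4741 and 88 and 86 in set2Δ and rose by 2.67 (adjusted p = 5.14e-05). YRR1, another regulator of drug resistance genes, had 1 and 2 against 37 and 38 (log2 fold change 2.18, adjusted p = 0.0285). HAP1, the haem-responsive regulator, fell by 1.72, with 18 and 17 counts against 36 and 21 at the higher depth (adjusted p = 0.000164). Inside the genes on the sense strand 17 of 45, SEF1 included, rose and 3 fell, against 25.0% and 17.6% of all tested genes. The median was 0.89 against 0.15. At the promoter 27 of 44, SEF1 included, rose and none fell, against 32.3% and 30.2%, with a median of 1.22 against 0.11.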

How the data were processed

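The authors sequenced capped 5′ ends from 10 µg of total RNA per library, with a random barcode of 8 nt and paired reads of 50 bp. The submitters' processing notes name CASAVA 1.8.2 and Novoalign and the R64 genome. Collapsing of reads by barcode is not given in the sources used here. The deposited values are whole-number counts of 5′ ends per base and strand, not normalized, 1 set per library. A shift of 42 bp was applied to the minus strand, as fixed by the pyrimidine-purine step at used positions. The 16 nuclear chromosomes had the lengths of the RefSeq reference.

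Counts were summed per gene in 3 windows. Positions within 2 genes of a strand were left out of the internal sense window, and those within 2 overlapping 5′ windows out of the 5′ window. The antisense window leaves out the 5′ windows of genes on that strand. Genes that reached 10 counts in all entered the tests, with edgeR 4.0.16 in R 4.3.3 (quasi-likelihood, TMM, Benjamini-Hochberg adjusted p below 0.1). Whether the change inside a gene differs from that at its promoter was tested in 1 model with library as a factor. Intervals of ratios are exact binomial and those of shares are Wilson intervals (95%). The fits were tested on simulated counts with known changes. Python 3.11.15, numpy 2.4.6, pandas 2.3.3, scipy 1.17.1 and matplotlib 3.10.9 were used. Replicate numbers did not pair the libraries.

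The members and gene lists were chosen with earlier results of these data known. Named genes are the members, their nearest neighbours, the 5 next in the order of antisense change, the 3 nearest in profile and up to 4 called per list. Alternatives were DESeq2 1.42.0, other scalings, no filter, other window limits, minus-strand positions as listed, high positions left out, distinct positions, a replicate block and each library left out.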

Additional observations from a re-analysis of the deposited data

How the results depend on the processing

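The antisense gain of the 3 genes has a lower bound only, since BY4741 held no counts in the windows at its lower depth. That bound makes no allowance for the choice of the genes. Over the alternatives the log2 of the least ratio ranged from 1.96 to 3.98 in SEF1, 1.43 to 3.45 in GID7 and 1.35 to 3.38 in BRR2, lowest without BY4741 replicate 1, which leaves 1 library for the floor. With 100 bp left out at the gene start, BRR2 held 3 BY4741 counts. For the 5′ window of GID7 the log2 fold change turned from -0.14 to 0.045 with library totals and ranged from -0.75 without BY4741 replicate 2 to 1.32 without BY4741 replicate 1, none called. With 1 library left out, the interaction of strain and window ranged from -4.44 to 5.61 in SEF1, from -0.24 to 3.0 in GID7 and from -2.26 to 0.24 in BRR2, in each with its sign turned without BY4741 replicate 1. The 5′ window call of SEF1 was also lost with positions of 8 or more counts left out (adjusted p = 0.104) and with distinct positions (adjusted p = 0.147). No alternative other than the left-out libraries named above changed an internal call of GID7 or BRR2.

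The number of genes called with antisense counts higher was 250, and it was 73 with DESeq2, 808 with library totals, 388 with distinct positions, 105 with a replicate block and 44 to 89 with 1 library left out. For lower antisense counts it was 66, and 39 with DESeq2, 30 with library totals, 39 with no filter, 42 with the block and 36 to 52 with 1 library left out. Internal sense counts were called higher in 1180 genes, in 618 with DESeq2, 1948 with library totals and 0 to 949 with 1 library left out, and lower in 834, 459, 345 and 0 to 762. Counts in the 5′ window were called higher in 1636 genes, in 700 with DESeq2, 923 with positions of 8 or more counts left out, 393 with distinct positions and 1133 to 1329 with 1 library left out. They were called lower in 1530 genes, in 663 with distinct positions and 1319 to 1405 with 1 library left out. The interaction was larger inside the gene for 349 genes, for 704 with library totals and 174 to 219 with 1 library left out, and smaller for 314, 76 and 165 to 292. Both counts of 0 arose without set2Δ replicate 2, and the cause was not tested. The replicate numbers are shared between the strains, but libraries with the same number did not deviate together (r = -0.003, -0.040 and -0.051 in the antisense, internal and 5′ windows), and the block changed no call of GID7, BRR2 or SEF1.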
